A study of Mus musculus with 6 samples.

Results

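The replication-dependent histone genes were taken as every gene of the deposited tables whose symbol begins with Hist1h, Hist2h, Hist3h or Hist4h, which gave 70 of the 53715 genes listed. They comprised 6 H1, 20 H2A, 19 H2B, 12 H3 and 13 H4 genes, of which 67 are annotated as protein coding and 3 as pseudogenes. Their RNA was measured in osteoblasts grown from the skull vault (calvaria) of newborn C57BL/6J mice, after 7 days in an osteogenic medium with ascorbic acid, β-glycerophosphate and dexamethasone. The series holds 3 libraries labelled Wild-type and 3 labelled Fam102a KO. The KO allele lacks exons 2 and 3 of Fam102a. It was made with an Actb-Cre transgene and deletes the gene in all tissues, so the loss is not limited to osteoblasts. The cultures hold all cells that grew from the digested bone, and in such bulk RNA fewer cells of a type and less RNA per cell cannot be told apart.

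Replication-dependent histone genes supply the core histones H2A, H2B, H3 and H4 and the linker histone H1 that package newly copied DNA, and they are transcribed mainly in S phase. Their mRNAs usually carry no intron and no poly(A) tail. They end instead in a short stem-loop, which the stem-loop binding protein SLBP holds while the U7 small nuclear RNP cuts the transcript just behind it. The genes lie in clusters that gather in the nucleus at histone locus bodies, where NPAT, a substrate of cyclin E with its kinase, drives their transcription. Bone-forming cells stop dividing as they mature, and histone mRNA is a common measure of how much a culture still copies its DNA. The cDNA kit used here, SMART-seq v4, primes on poly(A). Which share of each histone mRNA carried a tail that the primer could reach was not tested.

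The stem-loops are shown because they are the feature that defines this gene class. Annotated transcripts of 44 of the 70 genes held a 16-base stem-loop behind the stop codon, in 6 spellings that differ in the loop or in the stem. Capitals mark the 4-base loop.
Most common form, 26 genes of H1, H2A, H2B and H3 (Hist1h1c, Hist2h2aa2, Hist1h2bj, Hist1h3b): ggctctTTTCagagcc
Loop ending in A, 6 genes of H1, H2B and H3 (Hist1h2bk, Hist1h2bb, Hist1h3c): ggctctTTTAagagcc
Loop ending in T, 1 gene of H2A (Hist2h2ac): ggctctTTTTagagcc
H4 form, 7 genes (Hist1h4d, Hist1h4h, Hist1h4n): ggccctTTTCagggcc
H4 form with a loop ending in T, 2 genes (Hist1h4i, Hist2h4): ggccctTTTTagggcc
H4 form with another stem, 2 genes (Hist1h4b, Hist1h4j): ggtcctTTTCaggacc
The stem of the H4 genes thus differed from that of the other classes in all 11 H4 genes with a match. The stem-loop began 21 to 58 bases behind the stop codon, with a median of 31. In RefSeq 41 of the 44 gene models end at most 8 bases behind the stem-loop. In GENCODE, the annotation used here for these genes, 22 of the 44 run on for more than 100 bases, and the Hist1h1d model runs on for 4884. Of the 26 genes with no match, 18 have no annotated 3′ end of more than 15 bases behind the stop codon, so no stem-loop could be read there.

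On mm10 the genes form 2 long stretches on chromosome 13 and smaller groups elsewhere. The first stretch, chr13:21715763-22043676, holds 24 genes, and the second, chr13:23531050-23764406, holds 29. A further 10 genes lie at chr3:96219865-96270132, 3 at chr11:58948920-58956830 and Hist4h4 alone at chr6:136801553-136804415. The germline pair Hist1h2aa and Hist1h2ba lies apart at chr13:23933773-23934851, and the pseudogene Hist1h2al at chr13:51202727-51203065. Of the 70 genes, 61 have a single exon.

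Gene reads totalled 12212169, 18986894 and 19985762 in wild-type 1 to 3 and 12934473, 21210150 and 16795786 in Fam102a KO 1 to 3. Gene reads of Fam102a were 170, 249 and 244 in wild-type and 185, 260 and 257 in Fam102a KO. These reads also cover the part of the gene that is not deleted, and so they do not check the genotype labels, on which every direction given here rests. Nothing in the labels says that libraries of a genotype came from separate mice, and p-values then measure only the spread between these libraries.

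The 70 genes together took 0.132, 0.154 and 0.131% of the gene reads in wild-type and 0.175, 0.154 and 0.126% in Fam102a KO. On this scale both the highest and the lowest value belonged to KO libraries, and the genotypes overlapped. Levels of single genes are given as CPM, gene reads scaled to a common total with TMM factors of edgeR and expressed per 1000000. On that scale the genes summed to 1461 ± 174 CPM in wild-type and 1459 ± 283 CPM in Fam102a KO (SD, n = 3 each), a log2 ratio of 0.00. In CPM the highest library was wild-type 2, at 1662, followed by KO 1 at 1629, and the lowest was again KO 3. The 10 genes highest in CPM held 45.5% of all histone reads.

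Of the 70 genes, 62 passed the filter on low counts and were tested among 16391 genes. No histone gene passed an adjusted p of 0.05 in edgeR, in either direction, and the smallest adjusted p was 0.62. DESeq2 called 0 as well, with a smallest adjusted p of 0.247. Over all genes edgeR called 0.0488% at that threshold and DESeq2 0.708%. At an unadjusted p under 0.05 edgeR gave 1 histone gene higher in Fam102a KO (Hist1h2bk) and 1 lower (Hist1h2ap), where 2.92% of all genes were past that p on the higher side and 3.12% on the lower side. DESeq2 gave 2 higher (Hist1h2bk, Hist1h2br) and 1 lower (Hist1h2ap), against 2.68 and 2.61%. Without wild-type 3 edgeR gave 0 higher, against 1.77% of all genes, and without wild-type 2 it gave 5, against 2.03%. The median log2 fold change of the 62 was 0.02, beside 0.00 over all tested genes, with 34 above and 28 below 0. Wild-type and KO libraries lay apart, without overlap, in 4 of the 62, or 6.45%, and in 11.1% of all genes. The 3 that lay higher in Fam102a KO were Hist1h2bk, Hist1h2bl and Hist1h2br (against 5.48% of all genes). The 1 that lay lower was Hist1h2ap (against 5.61%). Hist1h2br shares most of its sequence with Hist1h2bq, and the summed CPM of these copies overlapped between the genotypes.

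The precision of these comparisons differed between genes. For 40 of the 62 the 95% interval of the log2 fold change lay within −1 and 1, so that a 2-fold change lay outside it, and for 21 it lay within a 1.5-fold change. The narrowest interval was that of Hist1h1e (−0.18 to 0.29), and the widest that of Hist1h2br (−0.02 to 5.79), which shares most of its sequence with a copy.

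**Figure D1:**
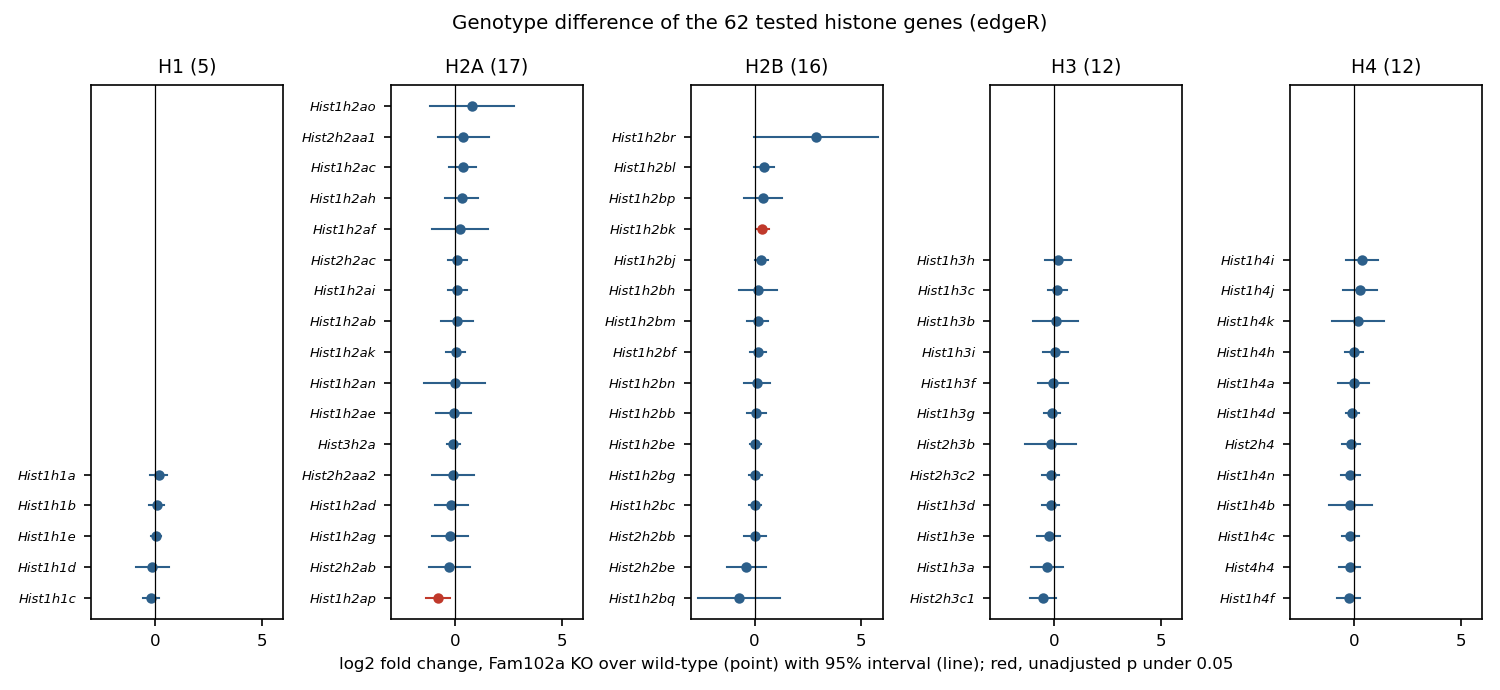
Log2 fold change of Fam102a KO over wild-type (x axis) for the 62 tested histone genes (y axis), in 1 panel per class, with the 95% interval as a line. Red marks the 2 genes with an unadjusted p under 0.05, Hist1h2ap at −0.79 and Hist1h2bk at 0.36, and the widest line belongs to Hist1h2br.

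Libraries of the same genotype differed from each other in their histone genes. Fam102a KO 3 was the lowest of the 6 libraries for 35 of the 62 genes, or 56.5%, where it was the lowest for 19.3% of all tested genes. Fam102a KO 1 was the highest for 21 of the 62, or 33.9%, where it was the highest for 18.6% of all tested genes, and wild-type 2 for 22 of the 62, or 35.5%, where it was the highest for 14.5% of all. In KO 3 the low values fell unevenly over the classes. It lay below every wild-type library for 10 of 12 H3 genes, 9 of 12 H4 genes, 11 of 17 H2A genes and 3 of 5 H1 genes, but for only 4 of 16 H2B genes, beside 27.0% of all tested genes. These are descriptions of 1 library and carry no test. Without KO 3 the median log2 fold change of the histone genes was 0.17, with 47 of 63 above 0, and without KO 1 it was −0.13, with 20 of 63 above 0. Without KO 3 edgeR still called 0 at an adjusted p of 0.05 (smallest 0.152), where it called 0.0759% of all genes, and an unadjusted p under 0.05 was met by 4 genes on the higher and 1 on the lower side, against 4.36 and 4.62% of all genes.

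**Figure D2:**
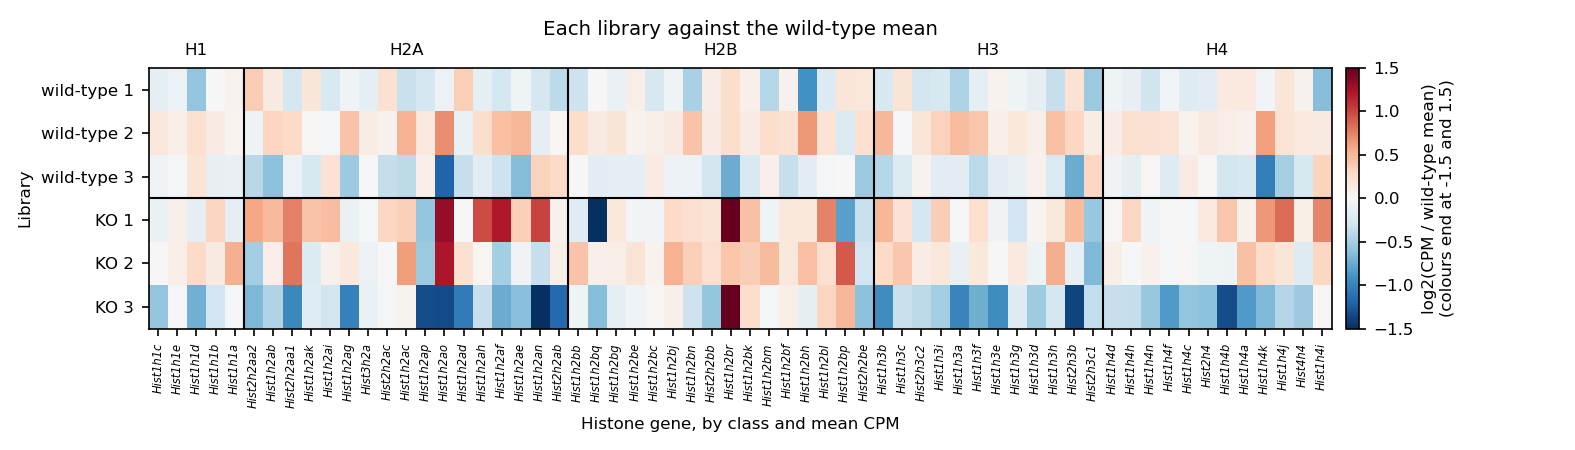
Each of the 6 libraries (rows) against the wild-type mean for the 62 tested histone genes (columns, by class and falling mean CPM), with red for a higher and blue for a lower log2 ratio. The row of KO 3 is blue across most H2A, H3 and H4 genes and mixed across H2B, where it lay below every wild-type library for 4 of 16.

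Histone genes of a class are hard to tell apart where their coding parts are nearly the same. Uniquely placed reads were 59.4% of all histone gene reads, where they were 47.1 to 56.0% of all gene reads of a library. By library the histone share was 52.1 to 64.4%, below that of all gene reads only in KO 1 (52.1 against 55.9%). The histone share followed the class. It was 94.1% for H1, 66.5% for H4, 49.9% for H3, 46.0% for H2B and 28.7% for H2A. In 34 of the 70 genes more than 50% of the 50-base windows of the transcript also occur in another gene. No uniquely placed read fell on 7 genes that had over 100 reads: Hist2h2aa1, Hist2h2aa2, Hist2h2bb, Hist2h3b, Hist2h3c1, Hist3h2a and Hist1h4b. Hist2h2aa2 shares 100% of its windows with other genes, whereas Hist3h2a shares 31.5% and lies wholly within an annotated Trim17 model on its strand. All 7 overlap another gene of the tables, on the same or on the opposite strand. Whether overlap, shared sequence or both left them without such reads was not tested.

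**Figure D3:**
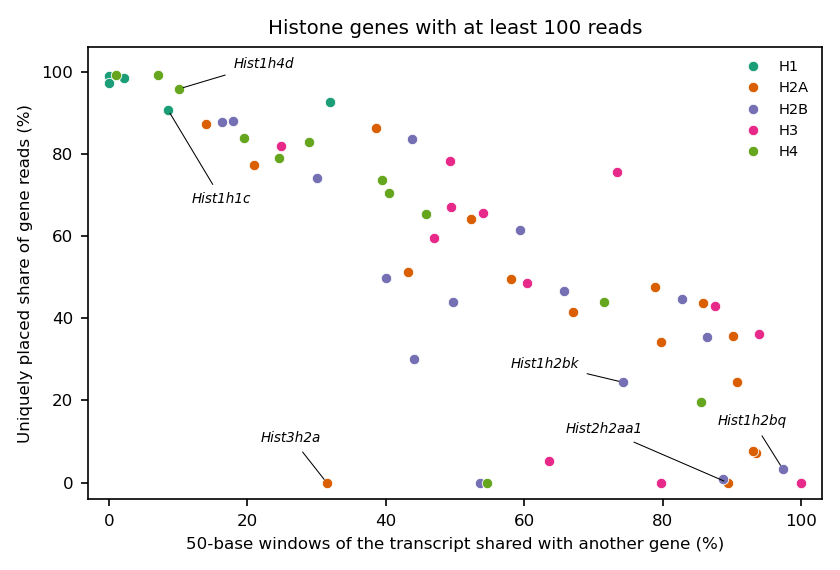
Uniquely placed share of gene reads (y axis, %) against the share of 50-base transcript windows found in another gene (x axis, %), 1 point per histone gene with at least 100 reads over the 6 libraries, coloured by class. Hist1h1c and Hist1h4d lie at the upper left with 90.7 and 95.8% unique reads, and Hist3h2a lies at 0 with only 31.5% of its windows shared.

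Per length the histone genes were among the higher genes of these cells. In wild-type, 40 of the 62 lay in the top 10% of tested genes by RPKM (exon reads per 1000 bases and per 1000000 gene reads, as the authors give it), with a median of 23.3 RPKM. The highest were the H4 gene Hist1h4n at 114 ± 18.3 RPKM, the H2A gene Hist2h2aa2 at 109 ± 31.2 and the H2B gene Hist1h2bb at 104 ± 18.5 (SD, n = 3). These 3 neighbours in the order differ by less than their spread. The highest H1 gene was Hist1h1c at 78.1 ± 7.25 RPKM and the highest H3 gene the copy Hist1h3i at 34.5 ± 7.14 RPKM. RPKM of genes with long annotated 3′ ends, such as Hist1h1d at 8.53 ± 2.40, divide by bases that lie behind the stem-loop.

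The class sums showed the same overlap of the genotypes as the single genes. The H1 sum was 313, 393 and 352 CPM in wild-type and 349, 391 and 276 CPM in Fam102a KO, a log2 ratio of −0.06. The H2A sum was 241, 254 and 185 CPM in wild-type and 318, 232 and 155 CPM in Fam102a KO, a log2 ratio of 0.05. The H2B sum was 380, 470 and 384 CPM in wild-type and 444, 493 and 385 CPM in Fam102a KO, a log2 ratio of 0.10. All KO libraries of H2B lay above wild-type 1 and wild-type 3, KO 3 by less than 1 CPM. Taken by replicate number, the H2B sum was higher in the KO library in 3 of 3 pairs, and that of each other class in 1 of 3. A sum over the class carries no test. The H3 sum was 150, 199 and 145 CPM in wild-type and 181, 183 and 108 CPM in Fam102a KO, a log2 ratio of −0.07. The H4 sum was 287, 346 and 285 CPM in wild-type and 338, 319 and 209 CPM in Fam102a KO, a log2 ratio of −0.08. Wild-type 2 was the highest wild-type library in every class, and KO 3 the lowest KO library in every class. Without KO 3 the log2 ratios of H1, H2A, H2B, H3 and H4 were 0.07, 0.27, 0.19, 0.14 and 0.10. Without KO 1 they were −0.08, −0.23, 0.09, −0.18 and −0.21. Without KO 2 they were −0.18, 0.06, 0.01, −0.19 and −0.16. The ratios of H1, H2A, H3 and H4 thus changed sign with the KO library left out. The ratio of H2B stayed above 0 whichever KO library was left out, but was only 0.01 without KO 2.

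**Figure D4:**
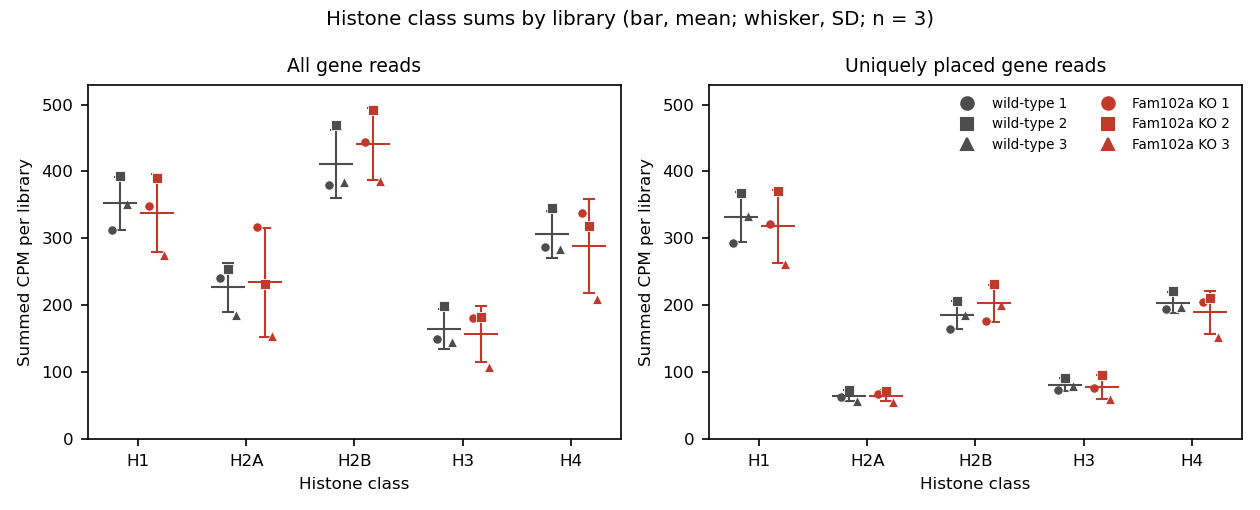
Summed CPM (y axis) of the 5 histone classes (x axis) in each library, from all gene reads (left) and from uniquely placed gene reads on the same scale (right), with the mean as a bar and the SD as a whisker. The genotypes overlap in every class, and the H2A sum falls from 227 to 64.7 CPM in wild-type when only uniquely placed reads are counted.

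The shares of the histone reads taken by the classes also differed between libraries. H2B took 27.7, 28.3 and 28.4% of the histone reads in wild-type and 27.2, 30.5 and 34.0% in Fam102a KO. H4 took 20.9, 20.8 and 21.1% in wild-type and 20.8, 19.7 and 18.4% in Fam102a KO. In wild-type these shares stayed within 1 percentage point. In KO 3 the share of H2B lay above and that of H4 below every other library. The KO 3 shares of H3 (9.57%) and H2A (13.6%) also lay below every other library, H2A only just below wild-type 3 (13.7%). The H1 share of KO 3 (24.3%) lay within the wild-type range. Wild-type shares spread more widely in these classes, over 22.83 to 26.04% for H1, 13.7 to 17.6% for H2A and 10.75 to 11.97% for H3. On uniquely placed reads alone the H2B sum was 165, 206 and 185 CPM in wild-type and 177, 231 and 200 CPM in Fam102a KO. By replicate number this H2B sum was also higher in the KO library in 3 of 3 pairs, against 2 of 3 for H1 and for H3 and 1 of 3 for H2A and for H4. The H4 sum on uniquely placed reads was 194, 222 and 197 CPM in wild-type and 205, 211 and 153 CPM in Fam102a KO.

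Linker histone H1 binds where DNA enters and leaves the nucleosome. Its genes are the ones best told apart here. Hist1h1c was at 116, 144 and 124 CPM in wild-type and 119, 128 and 85.3 CPM in Fam102a KO. Its log2 fold change was −0.21 (SE 0.17), and the KO range reached from within to below the wild-type range. Hist1h1e was at 86.5, 98.9 and 91.1 CPM in wild-type and 97.4, 98.9 and 91.1 CPM in Fam102a KO, with a log2 fold change of 0.06 (SE 0.10). This was the tightest comparison of the 62 tested histone genes, although 496 bases of its model are shared with Hist1h2be on the same strand. Hist1h1d was at 44.3, 79.0 and 76.6 CPM in wild-type and 60.0, 81.5 and 40.5 CPM in Fam102a KO, so that the lowest library of each genotype lay far from the other two. Hist1h1b and Hist1h1a had log2 fold changes of 0.08 and 0.16. Hist1h1t, the linker histone of spermatocytes, had 5, 22 and 10 reads in wild-type and 6, 16 and 7 reads in Fam102a KO and was not tested.

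H2A pairs with H2B in the nucleosome. The replication-dependent H2A genes were split evenly, with 9 of 17 above and 8 below 0 and a median log2 fold change of 0.04. Hist2h2aa2 was at 78.5, 57.4 and 45.2 CPM in wild-type and 90.4, 42.0 and 37.9 CPM in Fam102a KO. Hist1h2ab was at 38.1, 43.6 and 22.7 CPM in wild-type and 48.7, 37.2 and 25.5 CPM in Fam102a KO. Both genes were more variable within a genotype than between the genotypes, with log2 fold changes of −0.09 (SE 0.40) and 0.09 (SE 0.32). Hist1h2ak, Hist1h2ai and Hist1h2ag had log2 fold changes of 0.04, 0.11 and −0.24. Hist3h2a on chromosome 11 was the steadiest H2A gene, at 10.7, 12.6 and 11.8 CPM in wild-type and 11.5, 11.0 and 10.9 CPM in Fam102a KO. It had no uniquely placed read and lies within the Trim17 model. On chromosome 3 Hist2h2ac and Hist2h2ab had log2 fold changes of 0.11 and −0.26. The testis histone gene Hist1h2aa had no read in any library, which allows up to 3 reads a library, or 0.141 to 0.246 CPM.

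Hist1h2ap (chr13:21833026-21833507, ENSMUSG00000094777) was the histone gene with the smallest p. It was at 7.13, 9.42 and 8.96 CPM in wild-type and 5.68, 5.78 and 3.38 CPM in Fam102a KO, and every KO library lay below every wild-type library. Its log2 fold change was −0.79 (SE 0.24), with an unadjusted p of 0.0103 and an adjusted p of 0.62, so it did not pass the test. Its adjusted p was 0.063 to 1.00 over the alternative settings, lowest without a filter on low counts. Only 7.77% of its reads were uniquely placed, 5, 13 and 14 in wild-type and 3, 12 and 6 in Fam102a KO. On these reads its unadjusted p was 0.189. Hist1h2ap and Hist1h2ao, which share 93.1 and 93.5% of their windows with each other, summed to 11.6, 17.1 and 11.0 CPM in wild-type and 17.5, 16.8 and 5.25 CPM in Fam102a KO. The sum of both copies had a log2 ratio of −0.01, and KO 1 and KO 2 lay at the upper end of the wild-type range while KO 3 lay below it. The sum is not closed either, because Hist1h2ap and Hist1h2ao share 72.3 and 72.6% of their windows with Hist1h2ag.

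Of the 16 tested H2B genes 14 had a log2 fold change above 0, where 8162 of all 16391 tested genes did. None of the 16 passed the adjusted threshold, and their median log2 fold change was 0.13, beside 0.00 over all tested genes. These genes are not separate counts, because only 46.0% of H2B reads were uniquely placed and H2B genes share sequence. Hist1h2bl, for example, shares 72.0% of its windows with Hist1h2bq and with Hist1h2br. The most abundant H2B genes differed little between the genotypes. Hist1h2bb was at 44.7, 66.7 and 55.2 CPM in wild-type and 49.0, 75.0 and 53.1 CPM in Fam102a KO, with a log2 fold change of 0.09 (SE 0.20). Hist1h2bg, Hist1h2be and Hist1h2bc had log2 fold changes of 0.04, 0.04 and 0.01, with intervals that all lay within a 1.5-fold change.

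Hist1h2bk (chr13:22035870-22036345, ENSMUSG00000062727) was the histone gene with an unadjusted p under 0.05 on the higher side in edgeR with all 6 libraries. It was at 17.1, 17.7 and 13.9 CPM in wild-type and 22.1, 21.0 and 19.5 CPM in Fam102a KO, and the genotypes did not overlap. Its log2 fold change was 0.36 (SE 0.13), with an unadjusted p of 0.025 and an adjusted p of 0.757 (0.411 to 1.00 over the alternative settings). Without wild-type 3, KO 1 or KO 2 the unadjusted p was 0.0919, 0.0768 and 0.0584. Of its reads 24.4% were uniquely placed, and these gave 41, 71 and 61 reads in wild-type and 79, 105 and 102 in Fam102a KO, a log2 fold change of 0.62 and an adjusted p of 0.618. Both kinds of read thus put the KO libraries higher, and neither passed the test. Its neighbour Hist1h2bj (chr13:22043214-22043676), at the same end of the first stretch, was at 27.9, 32.3 and 27.7 CPM in wild-type and 35.7, 42.0 and 30.9 CPM in Fam102a KO. KO 3 fell within the wild-type range of Hist1h2bj, and the log2 fold change was 0.30 (unadjusted p 0.0526). Hist1h2bl, at the other end of that stretch, was at 5.77, 7.66 and 6.58 CPM in wild-type and 11.1, 7.85 and 8.31 CPM in Fam102a KO, with a log2 fold change of 0.44 (unadjusted p 0.055). With the replicate number as a block, the genes higher at an unadjusted p under 0.05 were 2, Hist1h2bk and Hist1h2bj, against 4.09% of all genes, and no adjusted p passed 0.05, where 0.0549% of all genes did.

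Of the H2B genes outside the long stretches of chromosome 13, Hist2h2be on chromosome 3 was at 0.621 to 1.08 CPM in wild-type and 0.590 to 0.741 CPM in Fam102a KO. Hist2h2bb, also on chromosome 3, was at 21.6, 21.7 and 16.5 CPM in wild-type and 22.9, 23.6 and 13.3 CPM in Fam102a KO, and none of its reads were uniquely placed. Hist3h2ba had 1 to 5 reads in a library and the pseudogene Hist3h2bb-ps 0 or 1. The testis gene Hist1h2ba had 1 read in all 6 libraries together, in KO 3. The other 2 pseudogenes, Hist1h2aj and Hist1h2al, had none.

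The largest fold change of any histone gene belonged to an H2B copy. Hist1h2br (chr13:21833743-21837530) had 65, 97 and 53 reads in wild-type and 1092, 124 and 314 reads in Fam102a KO. Hist1h2bq (chr13:21806612-21810197) had 846, 1379 and 1235 reads in wild-type and 119, 1520 and 855 reads in Fam102a KO. Hist1h2br was thus highest in KO 1, the library in which Hist1h2bq was lowest, and second highest in KO 3, where Hist1h2bq was second lowest in CPM. Hist1h2bq shares 97.3% of its windows with Hist1h2br, and uniquely placed reads were 3.38% of the reads of Hist1h2bq and 0.974% of those of Hist1h2br. Summed, the 2 copies were at 77.3, 83.7 and 66.7 CPM in wild-type and 87.1, 81.2 and 62.7 CPM in Fam102a KO, a log2 ratio of 0.02. The fitted log2 fold changes of 2.89 for Hist1h2br (adjusted p 0.825) and −0.72 for Hist1h2bq (adjusted p 1.00) therefore stood beside a sum whose genotypes overlapped. These 2 genes are 2 of the 6 histone genes with intron reads, and Hist1h2bq alone held 3542 of the 5422 intron reads of all histone genes.

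**Figure D5:**
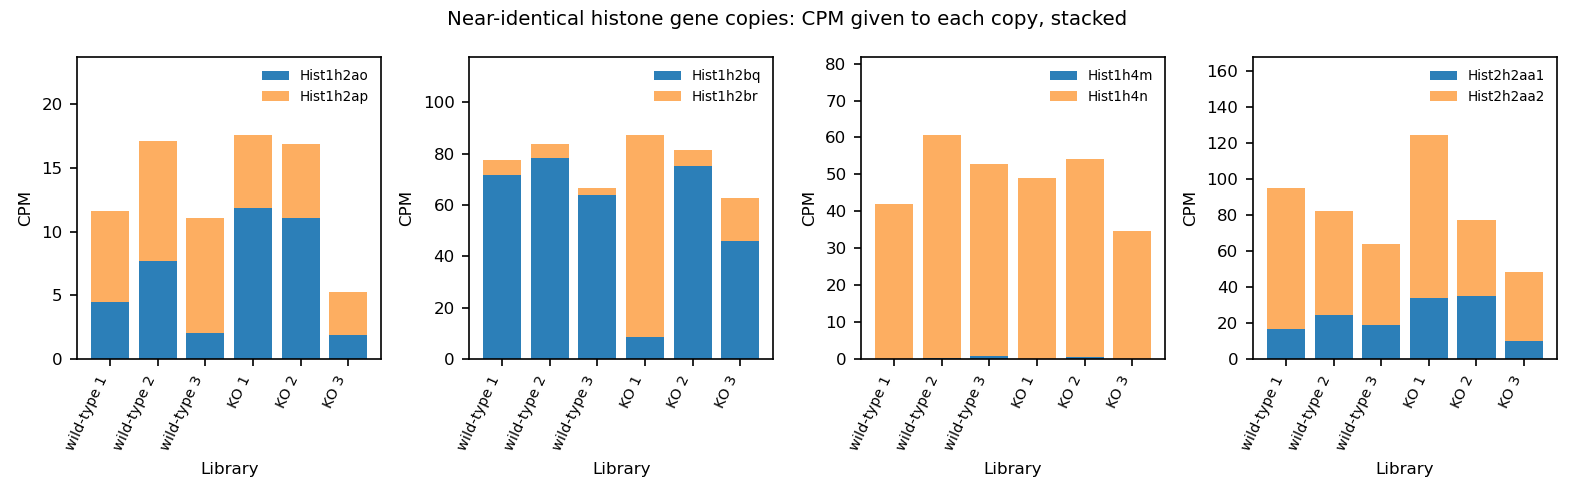
CPM given to each gene of 4 pairs of near-identical copies (y axis, stacked) in the 6 libraries (x axis). The split within Hist1h2bq and Hist1h2br turns over in KO 1, where Hist1h2bq held 9.83% of the pair's reads against 92.5% in KO 2, while the height of the stack stays within 62.7 and 87.1 CPM.

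Other copies showed smaller shifts of the same kind. Hist2h2aa1 took 17.6, 30.1 and 29.6% of the reads of the pair Hist2h2aa1 and Hist2h2aa2 in wild-type and 27.3, 45.6 and 21.5% in Fam102a KO. The sum of that pair was 95.3, 82.1 and 64.1 CPM in wild-type and 124, 77.1 and 48.2 CPM in Fam102a KO, so the highest and the lowest library were both KO. Hist1h4m took at most 1.67% of the reads of its pair with Hist1h4n in any library. In each of these pairs the split of reads between copies is uncertain, so the sums were compared. A sum can still share reads with further genes, as Hist2h2aa2 also shares 100% of its windows with Gm20634, which is not a histone gene of this set. Whether reads moved between a pair and such genes was not tested.

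H3 and H4 form the tetramer at the core of the nucleosome. Of the 12 H3 genes 4 lay above and 8 below 0, with a median log2 fold change of −0.13, and the same counts held for the 12 tested H4 genes, with a median of −0.11. None passed an unadjusted p of 0.05. Hist1h3b was at 18.7, 31.2 and 16.5 CPM in wild-type and 31.1, 27.2 and 11.6 CPM in Fam102a KO, with a log2 fold change of 0.07 (SE 0.43). Hist1h3c was at 23.6, 20.1 and 17.8 CPM in wild-type and 23.9, 27.2 and 16.2 CPM in Fam102a KO, with a log2 fold change of 0.13 (SE 0.20). Hist2h3c2, Hist1h3i, Hist1h3a, Hist1h3f and Hist2h3b had log2 fold changes of −0.17, 0.04, −0.32, −0.05 and −0.16. For Hist1h3b and Hist1h3c KO 3 was the lowest of all libraries and another KO library lay at or near the top. The smallest p among H3 genes belonged to Hist2h3c1, at 3.39, 5.39 and 6.21 CPM in wild-type and 3.38, 3.16 and 3.86 CPM in Fam102a KO (log2 fold change −0.54, adjusted p 0.906). That gene has no uniquely placed read and lies within the gene model Gm20634 on the same strand.

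Hist1h4d, of whose reads 95.8% were uniquely placed, had the smallest standard error of the log2 fold change among the 12 tested H4 genes. It was at 63.5, 71.8 and 63.9 CPM in wild-type and 67.1, 70.3 and 52.2 CPM in Fam102a KO, a log2 fold change of −0.07 (SE 0.13). Hist1h4h was at 44.8, 57.3 and 43.8 CPM in wild-type and 60.3, 48.9 and 38.0 CPM in Fam102a KO, a log2 fold change of 0.01 (SE 0.18). Hist1h4n was at 41.9, 60.4 and 51.9 CPM in wild-type and 49.1, 53.5 and 34.7 CPM in Fam102a KO. Hist1h4f and Hist1h4c had log2 fold changes of −0.24 and −0.18. In Hist1h4d, Hist1h4h and Hist1h4n KO 3 was the lowest library and the other 2 KO libraries lay within or just above the wild-type range. The H4 genes outside chromosome 13 had log2 fold changes of −0.15 for Hist2h4 and −0.20 for Hist4h4, with 99.1 and 99.2% uniquely placed reads. On uniquely placed reads Hist1h4n reached an unadjusted p of 0.0151 with a log2 fold change of −0.49 (adjusted p 0.632), with 116, 207 and 232 reads in wild-type and 92, 170 and 164 reads in Fam102a KO.

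H2A and H2B genes often stand back to back and start in opposite directions from a shared promoter. There were 14 such pairs with gene starts at most 305 bases apart, 11 of them with both genes tested. The genes of a pair did not take like differences throughout. Hist1h2ah and Hist1h2bk had log2 fold changes of 0.32 and 0.36, Hist1h2ai and Hist1h2bl of 0.11 and 0.44, and Hist1h2ag and Hist1h2bj of −0.24 and 0.30. Hist1h2ac and Hist1h2bc had 0.36 and 0.01. The pairs that hold a copy, Hist1h2ao with Hist1h2bq and Hist1h2ap with Hist1h2br, pointed in opposite directions.

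The promoters of 62 of the 70 genes were matched by symbol and position to RefSeq (GRCm38.p6, 250 bases before to 50 after the start, as 300 bases), and 3 motifs were searched on both strands. The octamer ATTTGCAT, which the Oct factors bind, was in 13 of the 62, all of them H2A or H2B genes (7 of 18 and 6 of 16), and in 1.74% of all 32851 RefSeq promoters. CCAAT, the motif of NF-Y, was in all 50 matched promoters of H1, H2A, H2B and H3 genes but in 3 of 12 of H4 genes, and in 37.4% of all. TATAAA was in 35 of the 62 and in 13.6% of all. Promoters of back-to-back genes overlap, as those of Hist1h2ah and Hist1h2bk do, so the same match can be counted for both genes of a pair. The promoter of Hist1h2bk, which lies between it and Hist1h2ah, is shown because it held all 3 motifs and belongs to the gene with the smallest p among those higher in Fam102a KO by edgeR. That of Hist1h4d, the H4 gene with the most uniquely placed reads, is shown beside it for the class that mostly lacks CCAAT, of which it is an exception. Capitals mark the matches, in either orientation.
Hist1h2bk, chr13:22035571-22035870, plus strand: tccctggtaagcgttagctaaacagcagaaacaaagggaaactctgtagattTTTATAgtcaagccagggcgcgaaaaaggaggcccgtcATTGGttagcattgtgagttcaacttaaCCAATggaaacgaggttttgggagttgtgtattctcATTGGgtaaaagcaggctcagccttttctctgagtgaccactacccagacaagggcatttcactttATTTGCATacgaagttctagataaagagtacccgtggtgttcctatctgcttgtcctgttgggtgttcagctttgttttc
Hist1h4d, chr13:23581318-23581617, plus strand: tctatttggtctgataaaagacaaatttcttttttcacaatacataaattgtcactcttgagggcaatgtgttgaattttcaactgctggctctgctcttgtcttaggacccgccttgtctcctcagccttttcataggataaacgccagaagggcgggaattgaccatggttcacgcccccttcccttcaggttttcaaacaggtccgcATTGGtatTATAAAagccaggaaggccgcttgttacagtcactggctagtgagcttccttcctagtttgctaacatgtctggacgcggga
A match describes these letters only and is not evidence of binding.

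Factors that make and cut histone mRNA were examined as a list. Of 20 such genes 19 were tested, with 11 above and 8 below 0, a median log2 fold change of 0.01, and 0 past an unadjusted p of 0.05, whatever the direction, beside 2.92% of all genes on the higher and 3.12% on the lower side. The count of 0 among 19 is near those shares. Slbp, the stem-loop binding protein, was at 17.6, 17.7 and 16.6 CPM in wild-type and 20.9, 19.1 and 15.3 CPM in Fam102a KO (log2 fold change 0.09, SE 0.14). Its highest library was KO 1 and its lowest KO 3, as for the H2A sum. Npat, the regulator of histone transcription, was at 18.7 to 23.8 CPM in wild-type and 17.6 to 20.3 CPM in Fam102a KO (log2 fold change −0.12, SE 0.14).

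A list of histone variants, kept apart from the replication-dependent genes, was read against the same shares of all genes. All 11 listed were tested, 6 lay above and 5 below 0 with a median of 0.00, and 0 passed an unadjusted p of 0.05. H3f3a and H3f3b, both of which encode the replacement form of H3, had log2 fold changes of −0.15 and 0.00. H2afz and H2afx had 0.05 and 0.14. Of 17 histone chaperones, which carry histones to DNA, 9 lay above and 8 below 0 with a median of 0.00 and 0 past that p. Of 41 S phase genes 1 had an unadjusted p under 0.05 on the higher side, or 2.44%, close to the share of all genes, and 0 on the lower side, with a median of 0.03. That gene was Ccne1, which encodes cyclin E1, at 13.3, 12.6 and 10.8 CPM in wild-type and 16.2, 18.2 and 14.7 CPM in Fam102a KO. The genotypes did not overlap, and its log2 fold change was 0.42 (SE 0.15), with an adjusted p of 0.693.

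The S phase genes summed to 756, 751 and 691 CPM in wild-type and 833, 799 and 694 CPM in Fam102a KO. KO 3 was the lowest library for 15 of the 41 and wild-type 3 for 14. KO 3 thus had the lowest S phase sum of its genotype as well as the lowest histone sum, but its S phase sum lay within the wild-type range, whereas its histone sum of 1132 CPM lay below that of every other library (1351 to 1662 CPM). The part of proliferation in the histone levels was not tested.

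Defining markers of the culture were checked beside these values. The 11 osteoblast markers summed to 14774 to 18265 CPM in wild-type and 15954 to 16889 CPM in Fam102a KO, with 5 of 9 tested above 0, 4 below and a median log2 fold change of 0.02. An unadjusted p under 0.05 on the lower side was met by 3 of the 9 (Runx2, Sp7 and Alpl), beside 3.12% of all genes, and no adjusted p passed. The 7 chondrocyte markers summed to 2226 to 2769 CPM in wild-type and 1077 to 2268 CPM in Fam102a KO, with the lowest value in KO 3. All 6 tested lay below 0 (median −0.81), 3 of them past that p beside the same 3.12%. Comp, which encodes a cartilage matrix protein, was the 1 marker that passed the adjusted threshold. It was at 293, 290 and 274 CPM in wild-type and 82.5, 126 and 93.0 CPM in Fam102a KO, and its log2 fold change was −1.51 (SE 0.16, adjusted p 0.026 in edgeR). With 1 library left out its adjusted p was 0.00569 to 0.218, under 0.05 only without KO 2, and with limma it was 0.0736 and 0.105. The 7 macrophage markers ranged from 759 to 2132 CPM in wild-type and from 368 to 1650 CPM in Fam102a KO, with 0 past an unadjusted p of 0.05. Skeletal muscle, adipocyte and endothelial markers summed to at most 91.8 CPM in any library, and no listed marker was without reads in all 6 libraries. An unadjusted p under 0.05 in edgeR was met by 1 of 3 tested muscle markers on the higher side, beside 2.92% of all genes. On the lower side it was met by 1 of 4 tested adipocyte markers, beside 3.12%, and by 0 of 5 endothelial markers in either direction. The part of these cell types in the histone values was not tested.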

How the data were processed

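The authors sequenced SMART-seq v4 cDNA on an Ion Proton and mapped and counted reads on mm10 with CLC Genomics Workbench. No source used here gives the annotation release, the strand setting or how reads that match several genes were placed. Counts, RPKM and TPM are as deposited by the authors, and total gene reads are exon plus intron reads. TPM were not used. Coordinates are those of the tables, and all 70 genes have the same ones in GENCODE M21.

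Total gene reads were fitted over all genes with edgeR 4.0.16 in R 4.3.3 (TMM, filterByExpr with a minimum count of 10, robust quasi-likelihood test, Benjamini-Hochberg adjustment at 0.05). Class sums and copy sums carry no test. Intervals cover 95%, and the limit of 3 reads for a gene with none covers counting error only. DESeq2 1.42.0 and limma 3.58.1, on log2(RPKM + 0.1) and log2(RPKM + 1), were alternatives, as were other factors, filters and reads, a replicate block and each library left out. The fits were tested on simulated data. Python 3.11.15 and matplotlib 3.10.9 were also used.

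The members and gene lists were chosen with earlier results of these data known. Named were genes past an unadjusted p of 0.05, the 6 per class with the highest mean CPM, the germline genes, those outside chromosome 13, and Slbp, Npat, H2afz, H2afx, H3f3a and H3f3b. Hist1h2bl, Hist1h2br, Hist1h2ao, Hist1h2ah and the copy and divergent pairs were chosen after their values were seen. The labels number the libraries of each genotype 1 to 3. Libraries of 1 number deviated together from their genotype means (r = 0.26, 0.19 and 0.23 over 14619 genes, between −0.27 and 0.07 for other pairs). Deviations from a mean of 3 libraries sum to 0, so the lower r of other pairs is partly forced. The numbers were read as pairs in the replicate block and in the class sums by replicate number. The main fit was not paired.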

Additional observations from a re-analysis of the deposited data

How the results depend on the processing

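No alternative called a histone gene, or a gene of the 4 lists of factors, variants, chaperones and S phase genes, at an adjusted p of 0.05. The class sums moved by less than 1 SD between libraries under all 12 of their alternatives, with log2 ratios from −0.18 to 0.11 for H1, −0.23 to 0.27 for H2A, 0.01 to 0.25 for H2B, −0.25 to 0.14 for H3 and −0.26 to 0.10 for H4.

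At an unadjusted p under 0.05 the counts moved. Histone genes higher in Fam102a KO were 3 without a filter and with limma at either pseudocount, and 2 with a minimum of 10 reads in every library, with DESeq2 and with exon reads (the last added after the data were seen). Of all genes 2.79% were higher without a filter, 6.39 and 6.57% with limma, 3.15% with the minimum of 10 reads, 2.68% with DESeq2 and 3.41% with exon reads. Leaving out 1 library gave 0 to 5 (1.77 to 4.36% of all genes). Histone genes lower were 2 with limma and with replicates 2 and 3 only, and 1 to 2 with 1 library left out, where limma put 1.60 and 1.65% of all genes lower, replicates 2 and 3 only 2.39%, and 1 library left out 1.98 to 4.62%. Genes of the 4 lists higher were 6 with limma and 2 without a filter and on unique reads (3.17% of all genes), and lower were 2 with replicates 2 and 3 only. Leaving out 1 library gave 0 to 3 in each direction. With the replicate block, histone genes higher were 2, list genes higher 2 and list genes lower 1, where 4.09% of all genes were higher and 4.25% lower. The block changed no call at an adjusted p.

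With limma on RPKM the median log2 fold change was 0.14 for the histone genes, with 40 of 62 above 0, but also 0.11 for all genes at a pseudocount of 0.1. RPKM are scaled by gene reads that include intron reads, which were 45.8 to 54.5% of gene reads and lowest in KO 1 and KO 3. Without KO 3, 47 of 63 histone genes lay above 0, and with replicates 2 and 3 only 18 of 64. Precision is limited by 3 libraries a genotype and by the 40.6% of histone reads that were not uniquely placed, and counts cannot show which copy was transcribed.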
